A study of Rattus norvegicus with 9 samples.

Results

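Cd8a and Cd8b encode the alpha and beta chains of CD8, and their transcripts were followed across 9 rat spleen RNA-seq libraries. They were selected by gene name from the count and FPKM tables, where each name has 1 row, so the pair is 2 of 34408 gene entries. The pair was proposed with these data in view, because both genes were low in the TAA libraries and higher in the other groups. Their levels are therefore given as a description, without a test.

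CD8 is the co-receptor of T cells that recognise peptides on MHC class I. The alpha and beta chains form a heterodimer on most of these cells, the extracellular part binds MHC class I, and the tail of the alpha chain holds the kinase Lck, which starts signalling from the T cell receptor. In the rat the alpha chain is also found without the beta chain on natural killer (NK) cells, so Cd8b is the more T cell-restricted of both genes. CD4, the other co-receptor, belongs to T cells that recognise MHC class II, and in the rat it is carried by macrophages as well.

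All rats are labelled WT. The control group is labelled only as control. The TAA group received thioacetamide (TAA), a liver toxin used to produce cirrhosis, by intraperitoneal injection every 3 days, at 200 mg/kg over the first 8 weeks and 100 mg/kg over the final 8 weeks. The TAA+celecoxib group received the same TAA course and, during the final 8 weeks, celecoxib, a cyclooxygenase 2 inhibitor, at 20 mg/kg per day. The labels give neither strain, sex and age nor whether each library is a separate animal, so the spread between libraries may be partly technical.

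Each group has 3 libraries, with 14211789 to 19014761 counts. Summed macrophage markers (11 genes) were lowest in control 1 (3037 CPM, the count scaled to library size) and TAA+celecoxib 1 (2439 CPM), against 4708 to 8978 CPM in the other 7 libraries. These libraries also had the highest summed T cell surface genes, 833 and 785 CPM, against at most 642 CPM elsewhere. Hepatocyte markers (8 genes) reached a sum of 859 CPM in TAA 1, of 111 CPM in control 1 and of at most 0.778 CPM in the other 7 libraries. The label names splenocytes as the cell type. B cell markers (8 genes) summed to 1957 to 3880 CPM, T cell surface genes (12 genes) to 358 to 833 CPM and macrophage markers to 2439 to 8978 CPM, so markers of all of these were present in every library.

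The genes lie side by side. In the coordinates of the files, Cd8b (ENSRNOG00000007129) spans chromosome 4, 99185885 to 99202023, and Cd8a (ENSRNOG00000007178) spans chromosome 4, 99239115 to 99243351. Both are on the plus strand, 37091 bases apart, with 0 annotated entries between them. The genome build of these coordinates is unresolved, because the submitters' processing notes name mRatBN7.2 while the files place gene ends on chromosome 1 as far as 282724300. The sequence upstream of the Cd8a start is shown because both neighbouring genes had parallel levels and this is the stretch that precedes transcription of the alpha chain. It comes from RefSeq on GRCr8, chr4:104923866-104924115, plus strand, 250 bases that end at the base before the start, with capitals marking GATA or its reverse complement.
Cd8a upstream: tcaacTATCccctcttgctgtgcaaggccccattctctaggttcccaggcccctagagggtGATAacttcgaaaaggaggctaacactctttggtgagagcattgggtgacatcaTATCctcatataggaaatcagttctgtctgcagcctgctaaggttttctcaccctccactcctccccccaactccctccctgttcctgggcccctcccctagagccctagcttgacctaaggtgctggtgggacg

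The window holds 3 matches to GATA, counted on both strands, and 55.9% of 33465 rat promoter windows of the same length hold at least 1. The ETS core GGAA has 3 matches on both strands, and 93.2% of the windows hold it. The RUNX core TGTGGT, the E-box spelled CANNTG, the TATA box spelled TATAAA and the GC box spelled GGGCGG have 0 matches on both strands, against 14.5%, 65.5%, 12.9% and 30.5% of the windows. A match is a description of letters and not a site. Cd8b is named only, without a promoter sequence.

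Cd8a was lowest in the TAA spleens. Control libraries gave 79.5, 80.8 and 96.2 CPM (1289, 1453 and 1691 counts). TAA libraries gave 45.0, 55.1 and 38.1 CPM (634, 804 and 730 counts), and TAA+celecoxib libraries 93.3, 91.7 and 91.3 CPM (1474, 1308 and 1619 counts). Every TAA library lay below every other library, and the highest TAA value, 55.1 CPM, was well under the lowest control value. The ranges of control and TAA+celecoxib overlapped, because control 3 was above all 3 TAA+celecoxib libraries. Group means were 85.5 ± 9.32 CPM in control, 46.1 ± 8.52 in TAA and 92.1 ± 1.06 CPM in TAA+celecoxib (SD, n = 3). Per length, Cd8a was at 61.0 ± 7.24, 32.9 ± 5.98 and 65.6 ± 0.618 FPKM in the same order.

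The small spread of Cd8a in TAA+celecoxib was below counting error. Counting alone would give an SD of 2.41 CPM there, against 1.06 CPM observed, so the closeness of the 3 values is finer than the depth can resolve. In control and TAA the observed SD of 9.32 and 8.52 CPM exceeded the counting SD of 2.23 and 1.73 CPM.

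Cd8b followed the same order at a lower level. The control libraries were at 16.6, 21.1 and 23.8 CPM (269, 379 and 419 counts), the TAA libraries at 9.52, 15.1 and 9.61 CPM (134, 220 and 184 counts), and the TAA+celecoxib libraries at 22.9, 17.5 and 21.7 CPM (362, 250 and 385 counts). The TAA libraries again lay below all others, but with a narrower gap, from 15.1 CPM in TAA 2 to 16.6 CPM in control 1. Control and TAA+celecoxib overlapped over most of their ranges. Means were 20.5 ± 3.66, 11.4 ± 3.18 and 20.7 ± 2.82 CPM in control, TAA and TAA+celecoxib (SD, n = 3), or 13.8 ± 2.62, 7.70 ± 2.13 and 13.9 ± 1.70 FPKM. Counting error of a single Cd8b value was 4.89% to 8.64%, against 2.43% to 3.97% for Cd8a. Levels of markers of other cells are given beside these values. Neutrophil markers (9 genes) summed to 87.4 to 334 CPM in control, 448 to 2254 in TAA and 332 to 770 CPM in TAA+celecoxib, and for 8 of 8 that passed the filter the TAA libraries lay above the control libraries, as they did for 6.94% of all genes tested. In TAA+celecoxib against TAA, 8 of 8 neutrophil markers had lower fitted values (median -1.08), 0 of them without overlap. Without TAA 3 that median was -0.12. Erythroid markers (9 genes) summed to 165 to 855 CPM in control, 506 to 4049 in TAA and 622 to 4793 in TAA+celecoxib. Their median log2 fold change in TAA against control was 2.10, with 8 of 9 higher by fitted value and 0 without overlap, and it was 0.996 without TAA 1 and 3.33 without control 1. Dendritic cell markers (9 genes) summed to 260 to 279, 193 to 242 and 200.6 to 265 CPM in the same order. Their median was -0.60 in TAA against control, with 8 of 9 lower by fitted value. For 2 the libraries did not overlap (22.2%, against 7.89% of all genes). In TAA+celecoxib against TAA their median was 0.13, with 6 of 9 higher. B cell markers had medians of -0.15 (6 of 8 lower) and 0.30 (8 of 8 higher) in these comparisons. The latter was -0.01 without TAA+celecoxib 1. The part of these cells in the CD8 levels was not tested. In bulk RNA, fewer cells of a type and less RNA per cell cannot be told apart.

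**Figure D1:**
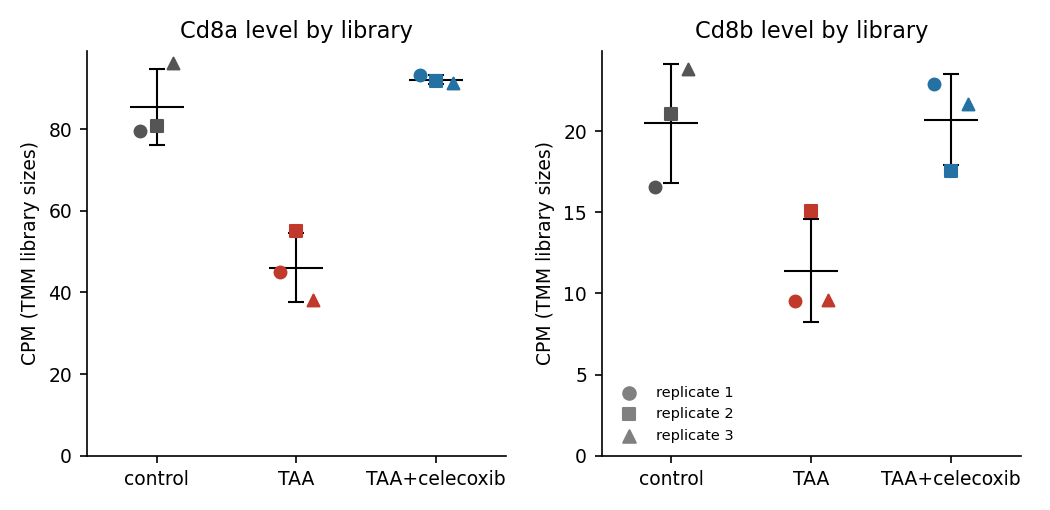
CPM of Cd8a (left) and Cd8b (right) in each library by group, with the group mean and SD over 3 libraries as black bars and marker shapes for replicate numbers. The TAA libraries, at 38.1 to 55.1 CPM for Cd8a and 9.52 to 15.1 CPM for Cd8b, lie below all control and TAA+celecoxib libraries.

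As fitted by edgeR, the log2 fold change of Cd8a was -0.89 (SE 0.15) in TAA against control, 1.0 (SE 0.15) in TAA+celecoxib against TAA and 0.11 (SE 0.14) in TAA+celecoxib against control. For Cd8b the values were -0.85 (SE 0.23), 0.86 (SE 0.23) and 0.02 (SE 0.23). The first and second comparisons share the TAA libraries, so a low TAA group gives both. Without control 1 and TAA+celecoxib 1, the libraries with few macrophage transcripts, Cd8a had -0.95, 1.0 and 0.04 and Cd8b -0.99, 0.79 and -0.20. By fitted value 2.78% of the 15954 genes tested were lower than Cd8a in TAA against control and 3.18% lower than Cd8b. In TAA+celecoxib against TAA, 1.82% were higher than Cd8a and 2.53% higher than Cd8b. At an adjusted p of 0.05, edgeR's quasi-likelihood test called 0% of genes in each of the 3 comparisons (0 of 15954), and so 0 of the 2 CD8 genes. Unadjusted p-values under 0.05 numbered 957, 812 and 803. Without any difference between groups, a share of about 0.05 of the 15954 genes would fall under that limit. Groups without overlap, lower in TAA than in control, made up 7.89% of genes tested, and groups without overlap, higher in TAA+celecoxib than in TAA, 5.87%. Both CD8 genes are among these by their choice, and nothing is read from it.

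The proportion of the chains differed between groups by less than the spread between libraries. The FPKM ratio of Cd8a to Cd8b was 4.47 ± 0.534 in control, 4.36 ± 0.586 in TAA and 4.77 ± 0.672 in TAA+celecoxib (SD, n = 3), so group means lay within 1 SD of each other. Among single libraries it was lowest in TAA 2, at 3.87 (95% exact binomial interval 3.33 to 4.51), and highest in TAA+celecoxib 2, at 5.54 (4.83 to 6.37). Control 1, at 5.07 (4.44 to 5.81), and TAA 1, at 5.01 (4.15 to 6.08), were next to the top, and the other 5 libraries lay between 4.06 and 4.45. These intervals cover counting error only. The high ratio of TAA+celecoxib 2 came with the lowest Cd8b of its group, 17.5 CPM, and a Cd8a of 91.7 CPM. In every group the library with the highest ratio also had the highest sum of 9 erythroid markers, at 855 CPM in control 1, 4049 CPM in TAA 1 and 4793 CPM in TAA+celecoxib 2. Whether the erythroid share has a part in the ratio was not tested.

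**Figure D2:**
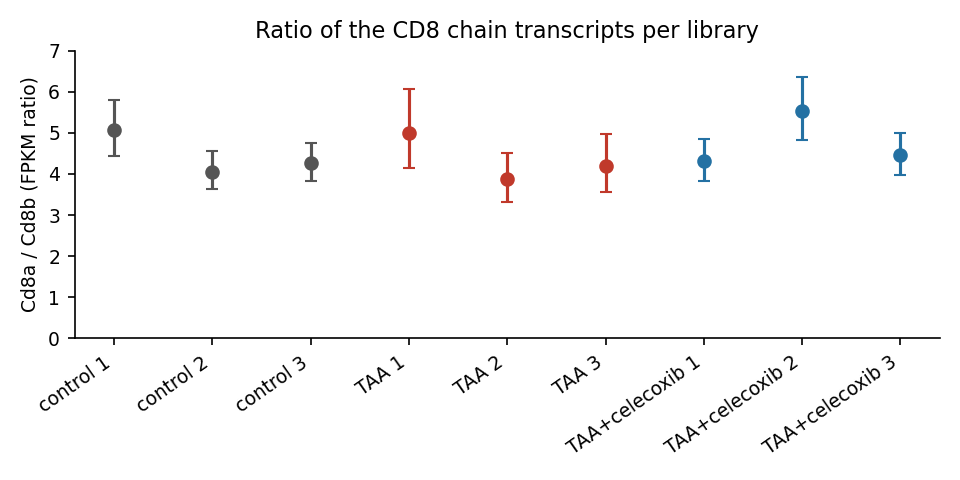
Ratio of Cd8a to Cd8b FPKM in each library (points), with 95% exact binomial intervals for counting error (bars), coloured by group. The 9 ratios run from 3.87 to 5.54 and the groups overlap.

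The CD3 chains, which carry the signal of the T cell receptor in CD4 and CD8 T cells alike, also had lower means in TAA, and varied more than Cd8a among the TAA+celecoxib libraries (SD 30.7 CPM on a mean of 96.3 CPM for Cd3e). Cd3e was at 112, 87.3 and 79.6 CPM in control, 56.4, 61.6 and 45.5 in TAA, and 124, 63.6 and 101 CPM in TAA+celecoxib. TAA+celecoxib 2, at 63.6 CPM, sat just above the TAA range for Cd3e, whereas its Cd8a was as high as in the rest of its group. Cd3d was at 22.3 CPM in TAA+celecoxib 2, below all 3 TAA libraries (25.9 to 36.8 CPM). The log2 CPM of Cd8a less the mean of Cd3d, Cd3e and Cd3g is not scaled by length, so only its variation between libraries can be read. It was -0.43, 0.07 and 0.65 in control, -0.17, 0.15 and 0.03 in TAA, and -0.22, 1.06 and 0.27 in TAA+celecoxib. The 3 groups overlapped, and the means of 0.10 ± 0.54, 0.0044 ± 0.16 and 0.37 ± 0.65 differed by less than the spread in control and TAA+celecoxib. For Cd8b the same quantity was -1.96 ± 0.67, -2.02 ± 0.35 and -1.79 ± 0.46. Relative to the CD3 chains, neither CD8 gene separated the groups. Against the mean of all 12 T cell surface genes, Cd8a was at 0.64 to 0.85 in TAA, 0.54 to 1.30 in control and 0.92 to 1.74 in TAA+celecoxib, so on that scale TAA+celecoxib lay above TAA, for a gene chosen for its low TAA level. For Cd8b the groups overlapped on that scale, at -1.49 to -1.01 in TAA, -1.71 to -0.70 in control and -1.10 to -0.64 in TAA+celecoxib.

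**Figure D3:**
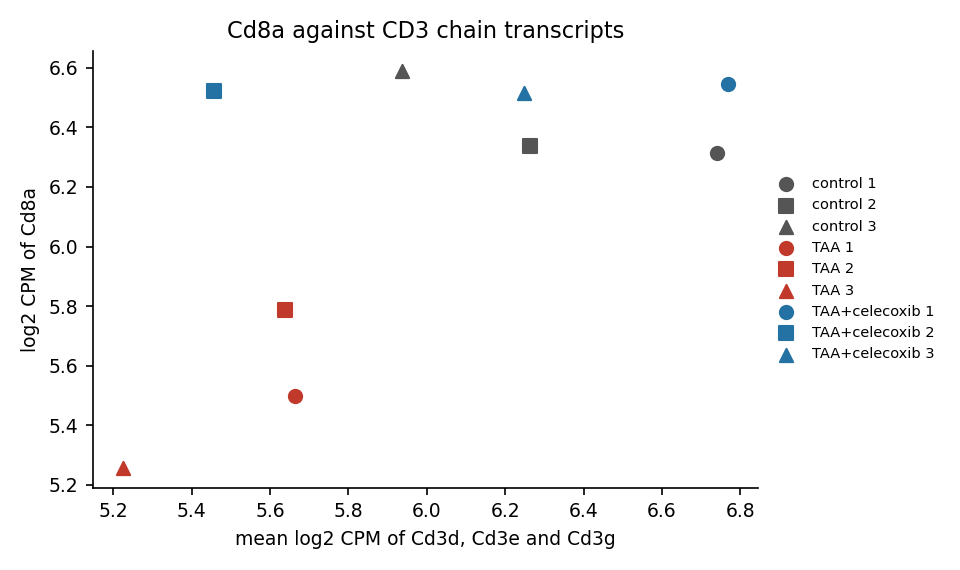
Log2 CPM of Cd8a (vertical) against the mean log2 CPM of Cd3d, Cd3e and Cd3g (horizontal), 1 point per library, with colours for groups and shapes for replicate numbers. The 3 TAA libraries are low on both axes, and TAA+celecoxib 2 is low for the CD3 chains but as high for Cd8a as its group.

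Cd4 had another order, highest on average in TAA. It was at 167, 240 and 234 CPM in control, 184, 268 and 282 in TAA, and 154, 240 and 226 CPM in TAA+celecoxib, and the groups overlapped. The edgeR log2 fold change of Cd4 was 0.19 (SE 0.23, adjusted p = 0.845) in TAA against control and -0.24 (SE 0.23, adjusted p = 0.903) in TAA+celecoxib against TAA. As a result the FPKM ratio of Cd4 to Cd8a was 1.99 ± 0.348 in control, 4.33 ± 1.37 in TAA and 1.78 ± 0.415 in TAA+celecoxib (SD, n = 3). It was 3.24, 3.87 and 5.86 in the TAA libraries and at most 2.36 elsewhere, without overlap, which follows from the choice of Cd8a for its low TAA level. Summed macrophage markers were lowest in the libraries with the lowest Cd4 of control and TAA+celecoxib and highest in the library with the highest Cd4, TAA 3. The sums were 3037, 5582 and 5171 CPM in control, 6046, 6071 and 8978 in TAA, and 2439, 5184 and 4708 CPM in TAA+celecoxib, and 11 of 11 markers had higher fitted values in TAA than in control (median 0.65 on the log2 scale). That median was 0.41 without control 1 and 0.40, with 8 of 11 higher, without control 1 and TAA+celecoxib 1. In TAA+celecoxib against TAA, 11 of 11 markers had lower fitted values (median -0.69). For 5 of them the libraries did not overlap (45.5%, against 5.03% of all genes), and edgeR called 0. Without control 1 and TAA+celecoxib 1 the latter median was -0.40, with 9 of 11 lower. The part of macrophages in the Cd4 level was not tested.

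Genes around CD8 were taken from 9 lists with 122 genes, chosen with earlier results of these data known, of which 117 are in the files and 114 passed the filter on low counts. In TAA against control, 89 of the 114 had lower and 25 had higher fitted values, at a median of -0.41 (log2), against 49.8% lower and a median of 0.0017 over all genes tested. EdgeR called 0 of them in either direction. Libraries did not overlap for 38 of 114 on the lower side (33.3%, against 7.89% of all genes) and for 3 on the higher side (2.63%, against 6.94%). In TAA+celecoxib against TAA, 88 of 114 had higher fitted values, with a median of 0.32 against 0.0071 over all genes, and edgeR called 0. Libraries did not overlap for 16 on the higher side (14%, against 5.87%) and 1 on the lower side (0.877%, against 5.03%). Without control 1 and TAA+celecoxib 1 the medians were -0.27 and 0.23, and without control 1 alone the first was -0.25. In TAA+celecoxib against control the median was -0.06, with 46 of 114 higher and 68 lower. Libraries did not overlap for 4 on each side (3.51%, against 5.27% higher and 4.42% lower over all genes).

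**Figure D4:**
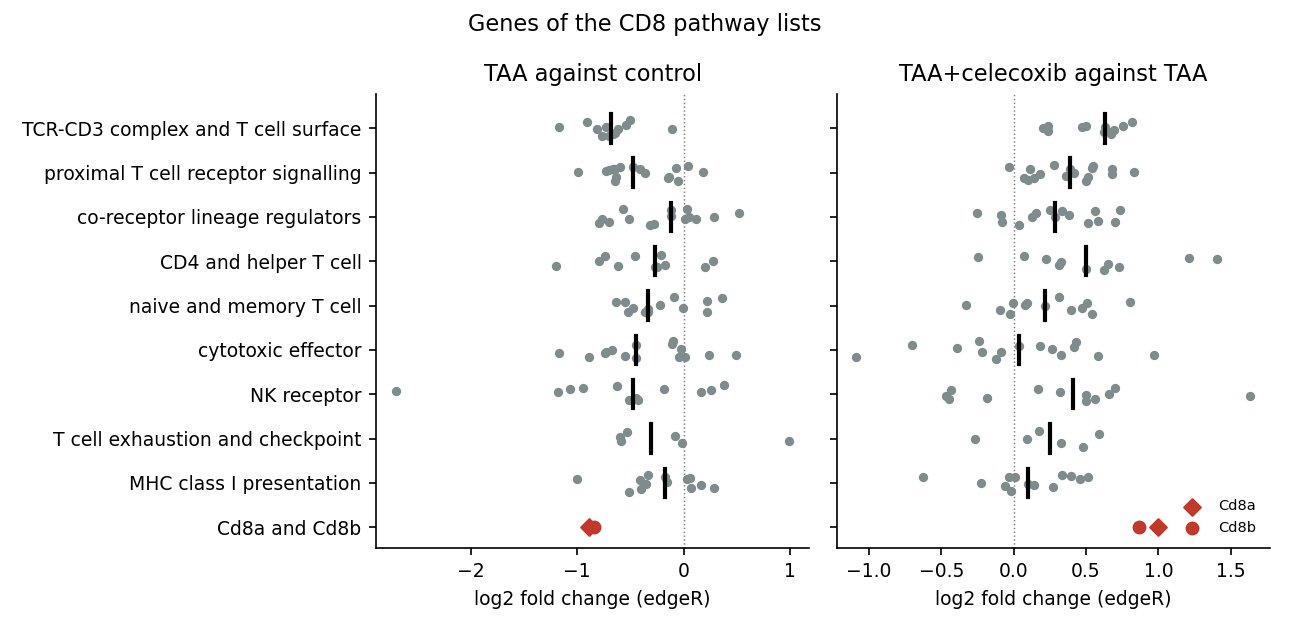
Log2 fold change from edgeR of each tested gene (grey points) in 9 lists, with the list median as a black bar, for TAA against control (left) and TAA+celecoxib against TAA (right), and Cd8a and Cd8b in red. Medians run from -0.69 to -0.12 on the left and from 0.04 to 0.63 on the right, and both panels share the TAA libraries.

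Among the 9 lists, the T cell receptor partners of CD8 had the medians nearest to it in size. All 12 genes of the CD3 complex and T cell surface had lower fitted values in TAA than in control, 9 without overlap (75%, against 7.89% of all genes), with a median log2 fold change of -0.69 and 0 called. All 12 were higher in TAA+celecoxib than in TAA, 4 without overlap (33.3%, against 5.87% of all genes), with a median of 0.63 and 0 called. Those medians were -0.48 without control 1 and 0.39 without TAA+celecoxib 1, the libraries with the most T cell surface transcripts. The smallest p-values in TAA against control belonged to Cd7, a T and NK cell surface glycoprotein (-1.17, SE 0.34), Cd3e (-0.77, SE 0.25) and Cd247, the zeta chain (-0.71, SE 0.23), each with edgeR adjusted p = 0.788. In TAA+celecoxib against TAA they belonged to Cd3e (0.82, SE 0.25), Cd247 (0.63, SE 0.23) and Cd6, a T cell adhesion receptor (0.69, SE 0.26), each with edgeR adjusted p = 0.890.

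Of 17 genes of proximal receptor signalling, 15 had lower fitted values in TAA than in control and 16 higher values in TAA+celecoxib than in TAA, with medians of -0.48 and 0.39 and 0 called by edgeR. Lck, the kinase bound by the CD8 alpha tail, was at 283, 182 and 186 CPM in control, 137, 161 and 102 in TAA, and 235, 131 and 218 CPM in TAA+celecoxib. TAA lay below control for Lck, while TAA+celecoxib 2 fell within the TAA range. The log2 fold changes of Lck were -0.70 (SE 0.27, edgeR adjusted p = 0.788) and 0.55 (SE 0.27, edgeR adjusted p = 0.890). Themis, a T cell protein needed for thymocyte selection, was at 12.9, 11.4 and 10.1 CPM in control, 7.25, 7.47 and 6.998 in TAA, and 13.9, 10.7 and 13.98 CPM in TAA+celecoxib. Its TAA libraries were the lowest of the 9 and close to each other. Themis had a log2 fold change of 0.83 (SE 0.18) in TAA+celecoxib against TAA, with edgeR adjusted p = 0.890, and it was the 1 pathway gene that DESeq2 called there (adjusted p = 0.0190). Txk, a Tec family kinase, had -0.48 (SE 0.17) in TAA against control and 0.50 (SE 0.17) in TAA+celecoxib against TAA.

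Regulators of the CD4 or CD8 choice had smaller median differences than the receptor and signalling genes. Runx3, the factor that sustains Cd8 expression in mature CD8 T cells, was at 24.8, 33.5 and 37.6 CPM in control, 22.2, 29.7 and 25.2 in TAA, and 27.5, 24.6 and 39.6 CPM in TAA+celecoxib, with overlap throughout (log2 fold change -0.31, SE 0.22, edgeR adjusted p = 0.793 in TAA against control). Zbtb7b, which encodes ThPOK, the factor of the CD4 lineage, was at 73.8 ± 10.01, 74.6 ± 2.15 and 62.5 ± 9.27 CPM (SD, n = 3), also with overlap. Over the 15 lineage regulators the median was -0.12 in TAA against control and 0.28 in TAA+celecoxib against TAA, with 9 lower and 12 higher and 0 called. TAA lay below control without overlap for 6 of the 15 (40%, against 7.89% of all genes) and above for 1 (6.67%, against 6.94%). The smallest p-values in both comparisons belonged to 3 factors of T cells. Lef1 had -0.77 and 0.74 (SE 0.26 each), Gata3 -0.70 and 0.70 (SE 0.25 and 0.26), and Tcf7 -0.57 and 0.51 (SE 0.21 each), with edgeR adjusted p of 0.788 and 0.890.

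Among the 11 CD4 and helper T cell genes, 9 had lower fitted values in TAA than in control and 10 higher values in TAA+celecoxib than in TAA, with medians of -0.27 and 0.50 and 0 called by edgeR. The medians became -0.13 without control 1 and 0.18 without TAA+celecoxib 1. Tnfrsf18, a receptor of regulatory and activated T cells, was at 16.4, 13.5 and 13.2 CPM in control, 9.45, 8.42 and 7.89 in TAA, and 9.56, 9.89 and 7.67 CPM in TAA+celecoxib. Unlike the CD8 genes, its TAA+celecoxib libraries were as low as the TAA libraries and all below control. In TAA against control DESeq2 called Tnfrsf18 (adjusted p = 0.0367) and edgeR did not (log2 fold change -0.74, SE 0.18, adjusted p = 0.788). Ccr4, a chemokine receptor of helper and regulatory T cells, had -1.20 (SE 0.45) and 1.21 (SE 0.45), and Cd40lg, the CD40 ligand, -0.80 and 0.73 (SE 0.35 each). Ccr8 had 1.40 (SE 0.66) in TAA+celecoxib against TAA, with overlap. Both Ccr4 and Ccr8 were sparsely counted. On average Ccr4 was at 2.74, 1.19 and 2.75 CPM in control, TAA and TAA+celecoxib, and Ccr8 at 0.622, 0.455 and 1.20 CPM.

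The 13 genes of naive and memory T cells had medians of -0.34 and 0.22, with 10 lower in TAA than in control and 9 higher in TAA+celecoxib than in TAA by fitted value and 0 called. Il2rb, a receptor chain for interleukins of memory CD8 T cells and NK cells, had -0.48 (SE 0.17) in TAA against control. Cxcr3, a chemokine receptor of effector cells, had -0.55 (SE 0.27) there. In TAA+celecoxib against TAA, S1pr1, the egress receptor, had 0.47 (SE 0.19), Cxcr6 0.54 (SE 0.27) and Crtam 0.81 (SE 0.41). All 5 of these had an edgeR adjusted p of 0.788 or 0.890. Crtam was sparsely counted, at 1.64 CPM in TAA and 2.85 CPM in TAA+celecoxib on average, with overlap.

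Cytotoxic effector genes did not follow CD8 as a group in TAA+celecoxib against TAA. Of 15 tested, 12 had lower fitted values in TAA than in control (median -0.44), and 8 had higher and 7 lower values in TAA+celecoxib than in TAA (median 0.04), with 0 called by edgeR in either. Without TAA 1 the first median was 0.034 and the second -0.15, and without TAA 3 the second was 0.20. Prf1, which encodes perforin, was at 95.5 ± 24.6 CPM in control, 96.1 ± 16.5 in TAA and 88.3 ± 18.5 CPM in TAA+celecoxib (SD, n = 3), with overlap throughout. Ctsw, a protease of cytotoxic cells, was at 62.7, 51.3 and 52.4 CPM in control, 31.7, 31.0 and 37.4 in TAA, and 42.5, 45.7 and 61.7 CPM in TAA+celecoxib, with TAA below all others. DESeq2 called Ctsw in TAA against control (adjusted p = 0.0496) and edgeR did not (-0.73, SE 0.17, adjusted p = 0.788). Gzmm, a granzyme, was at 95.8, 82.9 and 99.2 CPM in control, 56.3, 63.4 and 54.8 in TAA, and 60.6, 55.9 and 81.7 CPM in TAA+celecoxib, so TAA+celecoxib overlapped TAA and stayed below control. Gzma, the granzyme A gene, had -0.70 (SE 0.40) in TAA+celecoxib against TAA, and Eomes, a factor of memory CD8 T cells and NK cells, had -0.74 and 0.43 (SE 0.29 each).

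NK receptors matter here because the rat alpha chain is also made by NK cells. Klrd1, the CD94 subunit of NK receptors also carried by some CD8 T cells, was at 23.1, 25.9 and 32.04 CPM in control, 12.9, 11.9 and 13.7 in TAA, and 19.1, 21.3 and 20.3 CPM in TAA+celecoxib. The 3 groups did not overlap, and TAA+celecoxib lay between TAA and control. In TAA against control Klrd1 had a log2 fold change of -1.07 (SE 0.16), with edgeR adjusted p = 0.325, tied with other genes for the smallest edgeR gave in that comparison, and DESeq2 adjusted p = 1.1e-05. In TAA+celecoxib against TAA it had 0.66 (SE 0.15, edgeR adjusted p = 0.890) and in TAA+celecoxib against control -0.41 (SE 0.15, edgeR adjusted p = 0.911). Over 12 NK receptor genes the medians were -0.48 and 0.41, with 9 lower in TAA than in control, 8 higher in TAA+celecoxib than in TAA, and 0 called by edgeR. The second median was 0.01 without TAA+celecoxib 2. The summed level of the 12 genes overlapped between groups, at 472 to 655 CPM in control, 522 to 651 in TAA and 417 to 623 CPM in TAA+celecoxib. Tyrobp was the largest part of that sum, at 306, 364 and 266 CPM on average in the same order. The sum therefore says little about the other NK receptor genes. The parts of NK and T cells in the Cd8a level were not tested. Klrk1, which encodes NKG2D, had 0.70 (SE 0.24) in TAA+celecoxib against TAA, Klrb1c 0.50 (SE 0.24), and Klrc2 and Klre1 had -1.18 (SE 0.42) and -2.70 (SE 1.15) in TAA against control. Klre1 was sparsely counted in TAA, at 0.884 CPM against 5.89 CPM in control on average, and these groups overlapped. Klrc2 and the other members of these receptor families are similar in sequence, so their counts could share reads.

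Of 6 checkpoint genes tested, 5 had lower fitted values in TAA than in control and 5 higher values in TAA+celecoxib than in TAA, with medians of -0.31 and 0.25 and 0 called by edgeR. The first median was -0.03 without control 1, and the second 0.14 without TAA+celecoxib 1 and 0.42 without TAA+celecoxib 2. Lag3, an inhibitory receptor of activated T cells, was at 24.7, 20.1 and 26.6 CPM in control, 13.3, 18.8 and 15.1 in TAA, and 24.2, 19.9 and 26.8 CPM in TAA+celecoxib, with TAA below all others (edgeR adjusted p = 0.788 and 0.890). Havcr2, which encodes TIM-3, had -0.59 (SE 0.25) and 0.48 (SE 0.25). Entpd1, which encodes CD39, had 0.99 (SE 0.46) in TAA against control, and Btla 0.33 (SE 0.15) in TAA+celecoxib against TAA.

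The ligand side of CD8 differed less. B2m, the invariant chain of MHC class I, was at 4525, 3924 and 3391 CPM in control, 3360, 3605 and 3643 in TAA, and 4157, 3659 and 3860 CPM in TAA+celecoxib. Control covered the whole TAA range for B2m except its lowest value, and TAA+celecoxib lay narrowly above TAA (log2 fold change 0.14, SE 0.15, edgeR adjusted p = 0.914). Over 13 genes of class I presentation the medians were -0.18 and 0.10, with 8 lower in TAA than in control, 8 higher in TAA+celecoxib than in TAA, and 0 called. The first median was -0.43 without TAA 1 and -0.05 without control 1, and the second ran from -0.05 without TAA 3 to 0.21 without TAA+celecoxib 2. Nlrc5, the transactivator of MHC class I genes, was at 94.0, 79.9 and 78.6 CPM in control, 55.1, 64.2 and 57.8 in TAA, and 101, 69.6 and 81.9 CPM in TAA+celecoxib, with TAA below all others (-0.51 and 0.51, SE 0.15 each, edgeR adjusted p = 0.788 and 0.890). Tap1, a peptide transporter chain, had -0.40 and 0.33 (SE 0.23 each) and Calr, a chaperone, -0.23 (SE 0.13) in TAA+celecoxib against TAA. RT1-A2, a class I heavy chain with near-identical copies that could split its reads, had -1.0 (SE 0.70) in TAA against control.

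Genes beside the pair had smaller fitted differences than the CD8 genes in both comparisons with TAA, and edgeR called none of them. Of the 6 nearest annotated entries, 3 on each side, 5 passed the filter and AC120448.2 did not. Rmnd5a, a subunit of a ubiquitin ligase that lies 10281 bases beyond Cd8a on the opposite strand, was at 36.6 CPM in control, 48.3 in TAA and 45.1 CPM in TAA+celecoxib on average, and its log2 fold changes were 0.40 (SE 0.25, edgeR adjusted p = 0.788) and -0.10 (SE 0.25). AC120448.1, which ends 17058 bases before Cd8b, was at 0.704 to 1.34 CPM on average. Krcc1, 39057 bases before Cd8b, had -0.12 (SE 0.11) and 0.25 (SE 0.11, edgeR adjusted p = 0.890), and its TAA+celecoxib libraries lay above its TAA libraries. Rnf103, 155142 bases away, and Chmp3, 205759 bases away, had values between -0.02 and 0.13 with SE of 0.13 and 0.11.

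**Figure D5:**
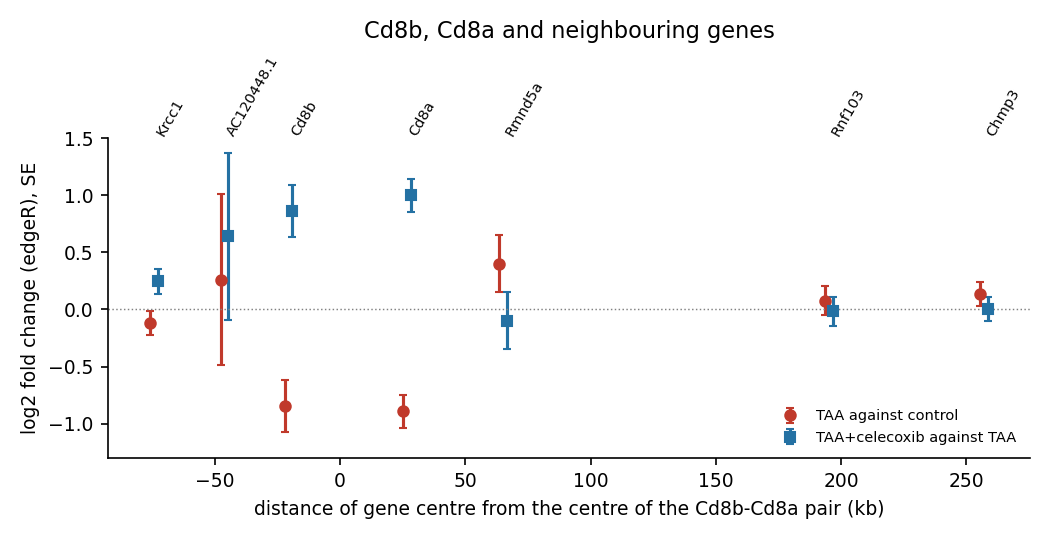
Log2 fold change from edgeR, with its SE as a bar, for Cd8b, Cd8a and the 5 tested neighbours by distance of the gene's centre from the centre of the pair in kb, in TAA against control (red circles) and TAA+celecoxib against TAA (blue squares). The CD8 genes lie at -0.89 and -0.85 and at 1.0 and 0.86, and each neighbour except the sparsely counted AC120448.1 lies between -0.12 and 0.40.

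Likeness to the CD8 genes was ranked by the correlation of log2 CPM across the 9 libraries, as a description without a test, since the libraries fall into 3 groups and share their scaling. Cd8b ranked second of 15953 genes for Cd8a, and Cd8a first for Cd8b, with Pearson's r of 0.94 and Spearman's rho of 0.93. With group means removed, r between the chains was 0.79, so within groups too the libraries high for one chain tended to be high for the other. The gene most like Cd8a, at r of 0.98, was AABR07044420.1, a long non-coding RNA entry at only 0.490 CPM on average. Igtp, a GTPase induced by interferon gamma, had r of 0.93 with Cd8a, which was 0.17 with group means removed, and 0.91 with Cd8b. It was at 137, 116 and 139 CPM on average in control, TAA and TAA+celecoxib. After Cd8b, the others most like Cd8a were 2 unnamed gene models, Spo11, Btnl9 and Rnf216, at r of 0.90 to 0.91. All of these except Rnf216 were sparsely counted, at 0.523 to 2.08 CPM on average. The others most like Cd8b were Ngef, Fam131c, Cxcl10, Rbak and the class Ib gene RT1-N3, at r of 0.90 to 0.93. Of these, Ngef and Fam131c were sparsely counted, at 0.527 and 1.51 CPM on average. Cxcl10, a chemokine that attracts effector T cells, was at 77.5, 54.6 and 88.0 CPM on average. Of the T and NK cell genes looked up for Cd8a, Klrd1 ranked 58th (r of 0.82), Cd3e 102nd (0.78) and Lck 359th (0.68), while Cd4 had r of -0.33. With group means removed, r was 0.10 for Klrd1, 0.17 for Cd3e, 0.29 for Lck and 0.08 for Cd4.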

How the data were processed

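Gene expression was measured by RNA-seq in 9 rat spleen samples in 3 groups of 3. The authors deposited raw counts per gene, whole numbers in 34408 entries, and FPKM values, which equal the count divided by gene length and by a library constant of 0.955 to 1.05 times the count total. HISAT2 2.0.5 and mRatBN7.2 are named, per the submitters' processing notes. How reads were assigned to genes, with which annotation and with or without strand, is not given in the sources used here, so overlapping genes could share reads. Groups came from the treatment labels.

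Counts were fitted with edgeR 4.0.16 in R 4.3.3 (quasi-likelihood, all 9 libraries by group, TMM, filterByExpr with minimum count 10 and total 15), leaving 15954 genes, both CD8 genes included. Tests were 2-sided with Benjamini-Hochberg adjustment over all genes and a threshold of 0.05. SE is the fitted log2 fold change divided by the root of its F statistic. CPM uses TMM library sizes and log2 CPM a prior count of 2. DESeq2 1.42.0 and limma-voom 3.58.1 were alternatives. Scripts were tested on simulated data.

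The members and lists were chosen with earlier results of these data known. Named were Cd8a, Cd8b, Cd4, Cd3e, Lck, Runx3, Zbtb7b and B2m, from every list 3 genes, those of smallest p, in both comparisons with TAA, the 8 genes most correlated with each chain, and 3 neighbours per side. Some genes under this rule are not reported here. Cd3d and Prf1 were added after their values were seen. Promoter sequence is from RefSeq (GRCr8), whose table matched Cd8a.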

Additional observations from a re-analysis of the deposited data

How the results depend on the processing

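Across 19 alternatives per value (another test tool, RLE factors or library totals, no filter on low counts, only the groups compared, the replicate block, deposited FPKM with a pseudocount of 1 or 0.1, each library left out, and, added after seeing the data, control 1 and TAA+celecoxib 1 both left out), the log2 fold change of Cd8a ran from -1.04 to -0.77 in TAA against control, from 0.88 to 1.15 in TAA+celecoxib against TAA and from 0.04 to 0.20 in TAA+celecoxib against control. Cd8b ran from -1.10 to -0.72, from 0.73 to 1.12 and from -0.20 to 0.14, so the sign of Cd8b in the last comparison changed. All of these shifts were smaller than 1 SD between libraries. Genes called in TAA against control, TAA+celecoxib against TAA and TAA+celecoxib against control numbered 58, 25 and 27 with DESeq2 in place of 0 with edgeR, and 0 with limma-voom. With only the groups compared, edgeR called 1 in TAA+celecoxib against control. Leaving out 1 library gave 0 to 1, 0 to 3 and 0 to 2 calls, the highest without TAA+celecoxib 2 in the first and without TAA 1 in the others. With all 12 T cell surface genes as the reference, Cd8a relative to them was 0.98, 0.74 and 1.26 in control, TAA and TAA+celecoxib. The median of cytotoxic genes in TAA against control ran from -0.589 without control 2 to 0.0342 without TAA 1, a change of sign. The cause of these changes was not tested.

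Replicate numbers are shared between groups in the labels. Deviations from group means correlated over 0.1 in 6 of 9 same-numbered pairs (-0.21 to 0.47) and in 4 of 18 other pairs, so more often where the number was shared. The main fit did not take the numbers as pairs, and whether same-numbered libraries share a source of variation was not tested. With the replicate block, edgeR called 0 genes in each comparison, and Cd8a had -0.90, 1.01 and 0.11. Unadjusted edgeR p-values under 0.05 numbered 1475, 1287 and 1065 with the block, against 957, 812 and 803 without it. As a percentage, counting error was larger for Cd8b than for Cd8a. In every group the SD of Cd8b between libraries still exceeded its counting SD. The observed SD was 3.66, 3.18 and 2.82 CPM in control, TAA and TAA+celecoxib, against counting SDs of 1.09, 0.858 and 1.14 CPM.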
